A study of Mus musculus with 12 samples.

Results

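The glycolysis enzymes and the lactate exporter were followed in 12 single cardiac precursor cells (CPs) of the mouse embryo. The members are 10 gene symbols chosen by name: the enzymes Hk2, Gpi1, Aldoa, Tpi1, Gapdh, Pgk1, Pgam1, Pkm and Ldha, and the exporter Slc16a3. All 10 are among the 14063 symbols of the table, and 9 of them, all but Hk2, reached a mean of at least 10 RPM (reads per 1000000 aligned reads of the cell) over the 12 cells and are called measured here, as are 5031 of all symbols. The study profiled 4 subpopulations of 3 cells each from CD1 embryos: EHF Nkx2-5+/Tbx5+ CPs, positive for both transcription factors at the early head fold stage, EHF Nkx2-5+ CPs of the same stage, EB Tbx5+ CPs of the early allantoic bud stage, and EB Nkx2-5+ CPs of that stage. All cells came from untreated embryos of this strain, with no altered allele named, and each was assigned to its group by PCR for marker genes on its own amplified cDNA. The study used these profiles to compare the subpopulations with each other. Each cell is 1 library, and the labels name no embryo, so each subpopulation counted as 1 sample and no test, standard error or p-value was computed. A difference between groups is therefore set beside the values of the single cells.

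Glycolysis splits glucose into pyruvate in the cytoplasm and yields ATP without oxygen. Lactate dehydrogenase turns pyruvate into lactate, which regenerates the NAD+ that the pathway needs, and monocarboxylate transporters carry the lactate out of the cell with a proton. Embryos at early stages after implantation are known for a high use of glucose, whereas the mature heart draws mainly on fatty acids that are oxidised in its mitochondria.

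The cells held 12475588 to 37905007 aligned reads, and 1 read was worth 0.0264 to 0.0802 RPM. Genes at 1 RPM or more numbered 2682 in the poorest cell, EHF Nkx2-5+/Tbx5+ replicate 3, 3073 in the next, EHF Nkx2-5+ replicate 2, and up to 5650 in the others. The defining genes of the cardiac precursor label were read next. Nkx2-5, Tbx5, Cfc1 and Sox17 were among the genes used to select the cells by PCR, so agreement on them is no independent check. Nkx2-5 was listed at 0 in the 3 EB Tbx5+ CPs and at 1.48 to 262 RPM in the other 9 cells. Tbx5 was at 3.69 to 60.3 RPM in the EHF Nkx2-5+/Tbx5+ CPs, at 0.0276 to 0.335 RPM in the EB Tbx5+ CPs and at 0 in the other 6 cells. Cfc1, a marker of lateral plate mesoderm, was under 0.1 RPM in 3 of the EB cells. Of the further cardiac markers, Isl1, Mesp1, Gata4, Hand1 and Mef2c were each at 0 in at least 1 cell. Mesp1 did not exceed 0.113 RPM at the EHF stage and reached 532 RPM at the EB stage. Myl7, at 12.6 to 1219 RPM, and Hand2, at 0.418 to 75.3 RPM, were above 0 in every cell. The endoderm markers Sox17 and Foxa2 and the blood marker Gata1 did not exceed 0.167 RPM in any cell. The neural marker Otx2 reached 11.2 RPM in EB Nkx2-5+ replicate 3 and the extraembryonic marker Cdx2 1.37 RPM in EB Nkx2-5+ replicate 2. Of 15 markers of these other cell types 6 were listed, and their part in the member levels was not tested. The sixth, Kdr, a receptor of endothelial and early mesodermal cells, was at 495 RPM in EHF Nkx2-5+ replicate 3, at 339 RPM in EB Tbx5+ replicate 1, at 395 RPM in EB Nkx2-5+ replicate 2 and at no more than 2.74 RPM in the remaining 9.

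The stretches of 250 bases upstream of a start site are printed for Slc16a3, the member whose levels were least like those of the others, for Ldha and Pgk1, and for Tpi1 and Gpi1, the pair whose levels were most alike over the cells. They are from RefSeq (GRCm38.p6, the mm10 build) and run 5′ to 3′ along the gene. Capitals mark ACGTG on either strand (ACGTG or CACGT), the core of the hypoxia response element. Where both strands hold it in overlap the letters are CACGTG, the E-box that basic helix-loop-helix factors such as MYC recognise.
Slc16a3 (chr11:120948817-120949066, plus strand): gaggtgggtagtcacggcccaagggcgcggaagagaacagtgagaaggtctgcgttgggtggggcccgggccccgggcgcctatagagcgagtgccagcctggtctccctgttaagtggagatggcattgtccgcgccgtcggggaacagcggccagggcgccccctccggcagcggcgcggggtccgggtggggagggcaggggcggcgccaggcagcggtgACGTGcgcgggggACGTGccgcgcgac
Ldha (chr7:46845554-46845803, plus strand): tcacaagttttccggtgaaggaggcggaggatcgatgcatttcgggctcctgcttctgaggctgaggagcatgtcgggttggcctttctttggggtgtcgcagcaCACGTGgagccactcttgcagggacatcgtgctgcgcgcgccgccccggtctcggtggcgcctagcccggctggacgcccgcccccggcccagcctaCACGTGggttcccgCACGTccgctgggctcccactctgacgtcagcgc
Pgk1 (chrX:106186850-106187099, plus strand): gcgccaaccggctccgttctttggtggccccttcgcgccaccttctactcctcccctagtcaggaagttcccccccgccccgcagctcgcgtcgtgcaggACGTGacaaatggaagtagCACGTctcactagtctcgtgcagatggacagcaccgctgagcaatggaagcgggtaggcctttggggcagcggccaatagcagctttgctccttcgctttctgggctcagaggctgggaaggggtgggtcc
Tpi1 (chr6:124814159-124814408, minus strand): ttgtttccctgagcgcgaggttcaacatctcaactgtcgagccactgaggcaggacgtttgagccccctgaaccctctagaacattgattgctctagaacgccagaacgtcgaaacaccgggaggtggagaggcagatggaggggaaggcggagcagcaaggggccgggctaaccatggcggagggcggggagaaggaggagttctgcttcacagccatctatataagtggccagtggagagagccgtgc
Gpi1 (chr7:34230337-34230586, minus strand): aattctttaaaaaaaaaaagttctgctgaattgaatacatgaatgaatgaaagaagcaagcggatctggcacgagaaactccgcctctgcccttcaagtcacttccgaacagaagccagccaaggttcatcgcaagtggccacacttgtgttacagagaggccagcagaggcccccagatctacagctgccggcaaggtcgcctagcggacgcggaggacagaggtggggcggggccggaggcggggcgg
The core occurred upstream of the first start that RefSeq lists for 5 of the 10 members: Hk2, Pgk1, Pgam1, Ldha and Slc16a3. Of 27025 genes in the same table, 16.6% held it in the 250 bases before their first start. With every listed start counted, 7 of the 10 members held it, since later starts of Aldoa and Pkm do. The share of all genes by that count was not computed. Ldha held 3 separate stretches, of which 2 were CACGTG, at 145 and 48 bases before the start. Tpi1 and Gpi1 held none in this window, and nothing follows from that about any factor.

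Glucose is first trapped in the cell as its 6-phosphate by hexokinase. Hk2 (chr6:82725025-82774454, minus strand; mm10, GENCODE M21), the inducible hexokinase, was at 1.24, 0.383 and 17.9 RPM across EHF Nkx2-5+/Tbx5+ CPs and 0.478, 0.141 and 0 RPM across EHF Nkx2-5+ CPs. It was at 0.245, 4.45 and 2.89 RPM across EB Tbx5+ CPs and 0.144, 0.573 and 0.446 RPM across EB Nkx2-5+ CPs. The EHF Nkx2-5+/Tbx5+ replicate 3 cell stood alone above 10 RPM, and the value of 0 in EHF Nkx2-5+ replicate 3 allows up to 0.240 RPM (3 reads, counting error only). Hk1, the other common hexokinase, was listed at 0 in all cells but EB Tbx5+ replicate 3, which had 0.0304 RPM. With both genes near 0, neither hexokinase was abundant as mRNA in these libraries. The upstream glucose transporter Slc2a1 (GLUT1) was read at up to 3647 RPM.

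Gpi1 (chr7:34201330-34230336, minus strand), which converts glucose 6-phosphate into fructose 6-phosphate, was at 405, 119 and 17.8 RPM across EHF Nkx2-5+/Tbx5+ CPs and 486, 50.3 and 136 RPM across EHF Nkx2-5+ CPs. It was at 264, 44.5 and 115 RPM across EB Tbx5+ CPs and 73.2, 129.9 and 172 RPM across EB Nkx2-5+ CPs. The highest values were those of EHF Nkx2-5+ replicate 1 and EHF Nkx2-5+/Tbx5+ replicate 1, and each subpopulation overlapped with every other. Phosphofructokinase follows, and of its genes only Pfkl, the liver-type subunit, was read in every cell, at 33.0 to 406 RPM.

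Aldoa (chr7:126795234-126800751, minus strand), the aldolase that cleaves fructose 1,6-bisphosphate, was at 690.4, 465 and 378 RPM across EHF Nkx2-5+/Tbx5+ CPs and 656, 114 and 267 RPM across EHF Nkx2-5+ CPs. It was at 1196, 1090.3 and 597 RPM across EB Tbx5+ CPs and 638, 523 and 877 RPM across EB Nkx2-5+ CPs. Aldoa varied less than most members, with a coefficient of variation (CV, the SD over 12 cells divided by their mean) of 0.51. EHF Nkx2-5+ replicates 2 and 3 had the lowest levels. Tpi1 (chr6:124810586-124814296, minus strand), which interconverts the 2 triose phosphates, was at 361, 74.7 and 7.49 RPM across EHF Nkx2-5+/Tbx5+ CPs and 422, 62.0 and 112 RPM across EHF Nkx2-5+ CPs. It was at 129.5, 8.10 and 79.5 RPM across EB Tbx5+ CPs and 51.8, 257 and 375 RPM across EB Nkx2-5+ CPs. It was under 10 RPM in EHF Nkx2-5+/Tbx5+ replicate 3 and EB Tbx5+ replicate 2, and its CV of 0.93 was the largest of the measured members.

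Gapdh (chr6:125161715-125166467, minus strand), which oxidises glyceraldehyde 3-phosphate and reduces NAD+, was at 311, 255 and 14.3 RPM across EHF Nkx2-5+/Tbx5+ CPs and 191, 178 and 113 RPM across EHF Nkx2-5+ CPs. It was at 172, 184 and 229.9 RPM across EB Tbx5+ CPs and 223, 187 and 306 RPM across EB Nkx2-5+ CPs. Apart from EHF Nkx2-5+/Tbx5+ replicate 3, the cells lay within 113 to 311 RPM, and the CV of 0.41 was the smallest among the members although that cell is included. The Gapdh level is uncertain, because 161 other mouse genes, 150 of them pseudogenes, share at least 200 bases at 90% identity or more with its transcript. The listed processed pseudogene Gm12070 exceeded Gapdh in 12 of 12 cells, at 1.07 to 1.54 times its RPM, and the 5 listed Gapdh pseudogenes summed to 1.27 to 1.87 times it. Gm12070 also followed Gapdh across the cells (Spearman's rho 0.90 over 12 cells that share library and depth). How the authors divided such reads: not given in the sources used here.

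Pgk1 (chrX:106187100-106203699, plus strand), which makes the first ATP of the pathway, was at 204, 136 and 2.44 RPM across EHF Nkx2-5+/Tbx5+ CPs and 209, 30.6 and 33.2 RPM across EHF Nkx2-5+ CPs. It was at 403, 106 and 139 RPM across EB Tbx5+ CPs and 36.4, 156 and 65.6 RPM across EB Nkx2-5+ CPs. EB Tbx5+ replicate 1 was the highest and EHF Nkx2-5+/Tbx5+ replicate 3 the lowest. Pgam1 (chr19:41911923-41918660, plus strand), the mutase that moves the phosphate of phosphoglycerate, was at 758, 477 and 1.32 RPM across EHF Nkx2-5+/Tbx5+ CPs and 1035, 23.2 and 304 RPM across EHF Nkx2-5+ CPs. It was at 2017, 634 and 881 RPM across EB Tbx5+ CPs and 1339, 1654 and 982 RPM across EB Nkx2-5+ CPs. All EHF cells lay below the lowest EB cell except replicate 1 of either EHF subpopulation, and the lowest value, 1.32 RPM, rested on 46 reads. The enolase step is not among the members. Eno1 was at 19.4 to 260 RPM, and its near-identical copy Eno1b, looked up after the values were seen, was at 1420.2 to 3999 RPM, so the 2 cannot be told apart with certainty.

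Pkm (chr9:59656368-59679375, plus strand), the pyruvate kinase that makes pyruvate and the second ATP, was at 2270.3, 2125 and 513 RPM across EHF Nkx2-5+/Tbx5+ CPs and 1519, 1640.1 and 697 RPM across EHF Nkx2-5+ CPs. It was at 1623, 1681 and 524 RPM across EB Tbx5+ CPs and 935, 939.5 and 829 RPM across EB Nkx2-5+ CPs. The EB Nkx2-5+ CPs lay within 829 to 939.5 RPM, the narrowest spread of any subpopulation for this gene. Ldha (chr7:46841475-46855627, plus strand), the lactate dehydrogenase subunit of muscle type, was at 4536, 2059.7 and 179 RPM across EHF Nkx2-5+/Tbx5+ CPs and 2880.3, 117 and 1042 RPM across EHF Nkx2-5+ CPs. It was at 4085, 1535 and 989 RPM across EB Tbx5+ CPs and 2916, 1453 and 2403 RPM across EB Nkx2-5+ CPs. Its lowest values were in EHF Nkx2-5+ replicate 2 and EHF Nkx2-5+/Tbx5+ replicate 3, the same pair that was poorest in genes, and the next lowest was at 989 RPM.

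Slc16a3 (chr11:120948480-120960868, plus strand), the monocarboxylate transporter MCT4 that exports lactate, was at 14.6, 61.7 and 112 RPM across EHF Nkx2-5+/Tbx5+ CPs and 175, 20.3 and 29.1 RPM across EHF Nkx2-5+ CPs. It was at 259, 73.6 and 259 RPM across EB Tbx5+ CPs and 36.5, 65.8 and 49.3 RPM across EB Nkx2-5+ CPs. EB Tbx5+ replicates 1 and 3 were the highest, with EHF Nkx2-5+ replicate 1 next. In contrast to the enzymes, its lowest value was in EHF Nkx2-5+/Tbx5+ replicate 1, where Ldha was highest, and EHF Nkx2-5+/Tbx5+ replicate 3, where 6 of 9 members were lowest, was the fourth highest for Slc16a3.

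**Figure D1:**
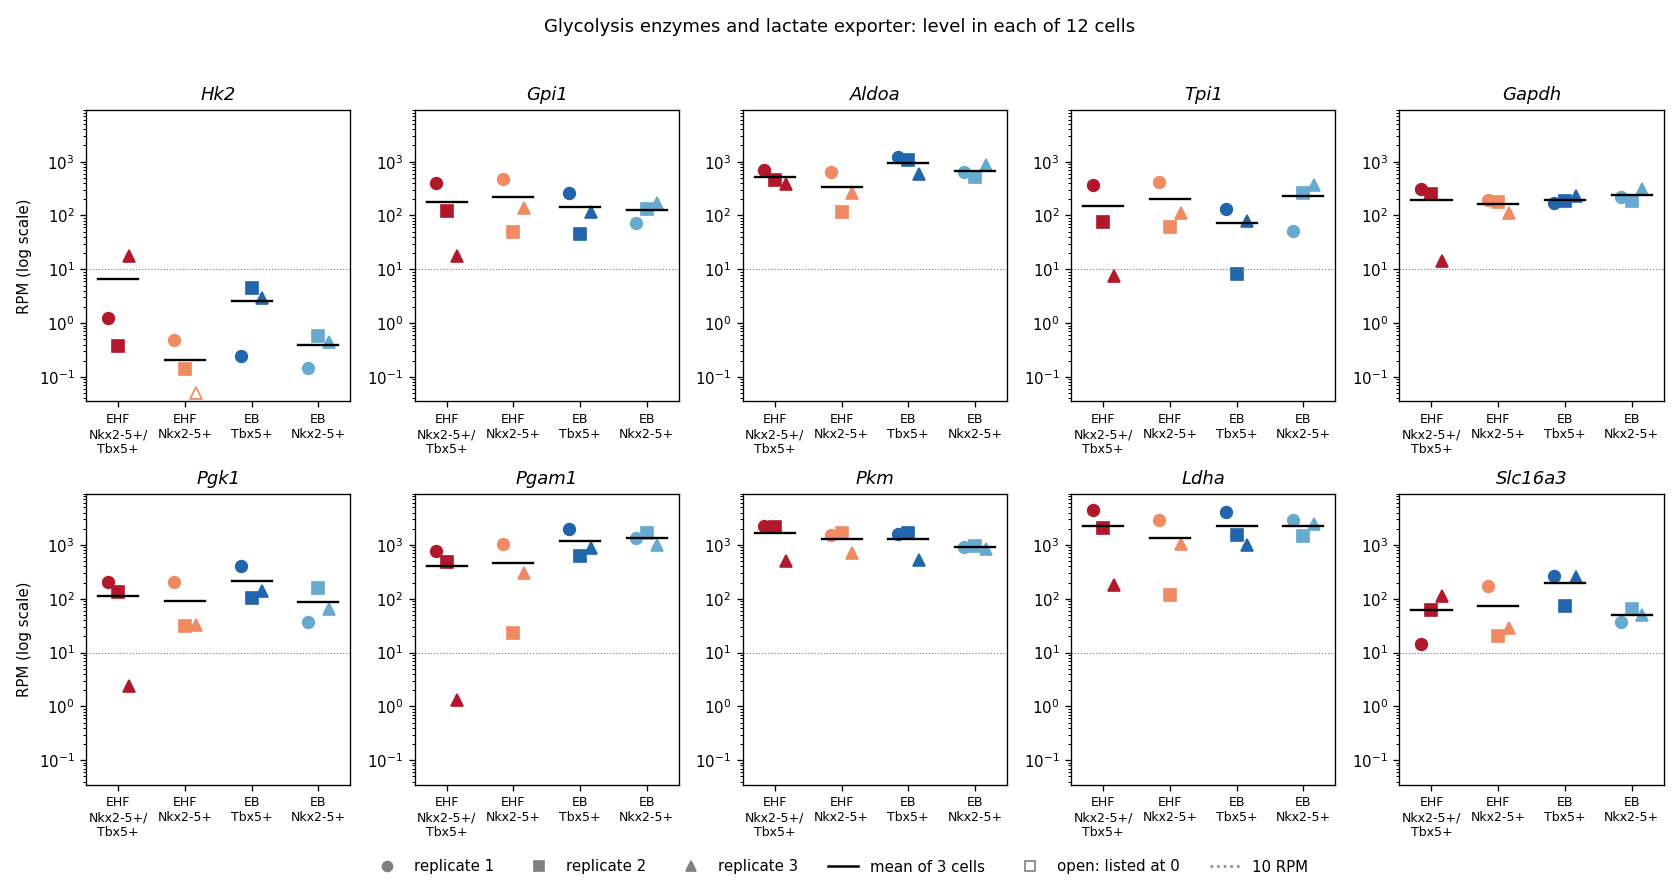
RPM of each of the 10 members (log axis) in the 12 cells, by subpopulation, with each symbol 1 cell, the bar the mean of 3 cells and an open symbol a value listed at 0. The 9 measured members stayed above 1 RPM in every cell, the lowest being Pgam1 at 1.32 RPM in EHF Nkx2-5+/Tbx5+ replicate 3, and Hk2 passed 10 RPM in that cell alone.

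Levels were compared between genes per kilobase of transcript, which is inexact for cDNA primed at the poly(A) tail. Ldha came first with a mean of 1142 RPM per kb, followed by Pkm at 524, Pgam1 at 474 and Aldoa at 413 RPM per kb. Gapdh had 139, Tpi1 101, Pgk1 69.4, Gpi1 58.2, Slc16a3 22.2 and Hk2 0.437 RPM per kb. Pkm, Pgam1 and Aldoa overlapped over the cells, at 211 to 934, 0.743 to 1137 and 75.5 to 792 RPM per kb, and are not separated by their order. Ldha lay above Gapdh in 11 of 12 cells, and Pkm did so in 12 of 12. With the reads of the 5 listed pseudogenes added to Gapdh, Ldha lay above it in 11 of 12 cells and Pkm in 9 of 12, and the mean of Gapdh was 367 RPM per kb. Gapdh was then the higher in EB Tbx5+ replicate 3 (429 against 215 RPM per kb of Pkm) and in EB Nkx2-5+ replicates 1 and 3, so its place in this order is not settled.

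Among isozymes, the member was the more abundant form in nearly every cell. Ldha exceeded Ldhb, the heart-type subunit, per kb in 12 of 12 cells, with medians of 1018 and 119.9 RPM per kb. Pgam1 exceeded the muscle form Pgam2 per kb in 11 of 12 cells, the exception being EHF Nkx2-5+ replicate 2. There Pgam1 and Pgam2 were at 13.0 and 13.5 RPM per kb. Before division by length Pgam1 was the higher in that cell too, at 23.2 against 11.4 RPM. Slc16a3 exceeded Slc16a1 (MCT1), a transporter of lactate in either direction, in 11 of 12 cells, with medians of 14.7 and 1.54 RPM per kb, and EB Nkx2-5+ replicate 1 was the exception. Aldoc, the brain-type aldolase, did not exceed 0.0553 RPM in any cell. Slc2a1 exceeded Hk2 in 11 of 12 cells, and the order was turned in EHF Nkx2-5+/Tbx5+ replicate 3, where Slc2a1 was at 0.631 RPM and Hk2 at 17.9 RPM.

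**Figure D2:**
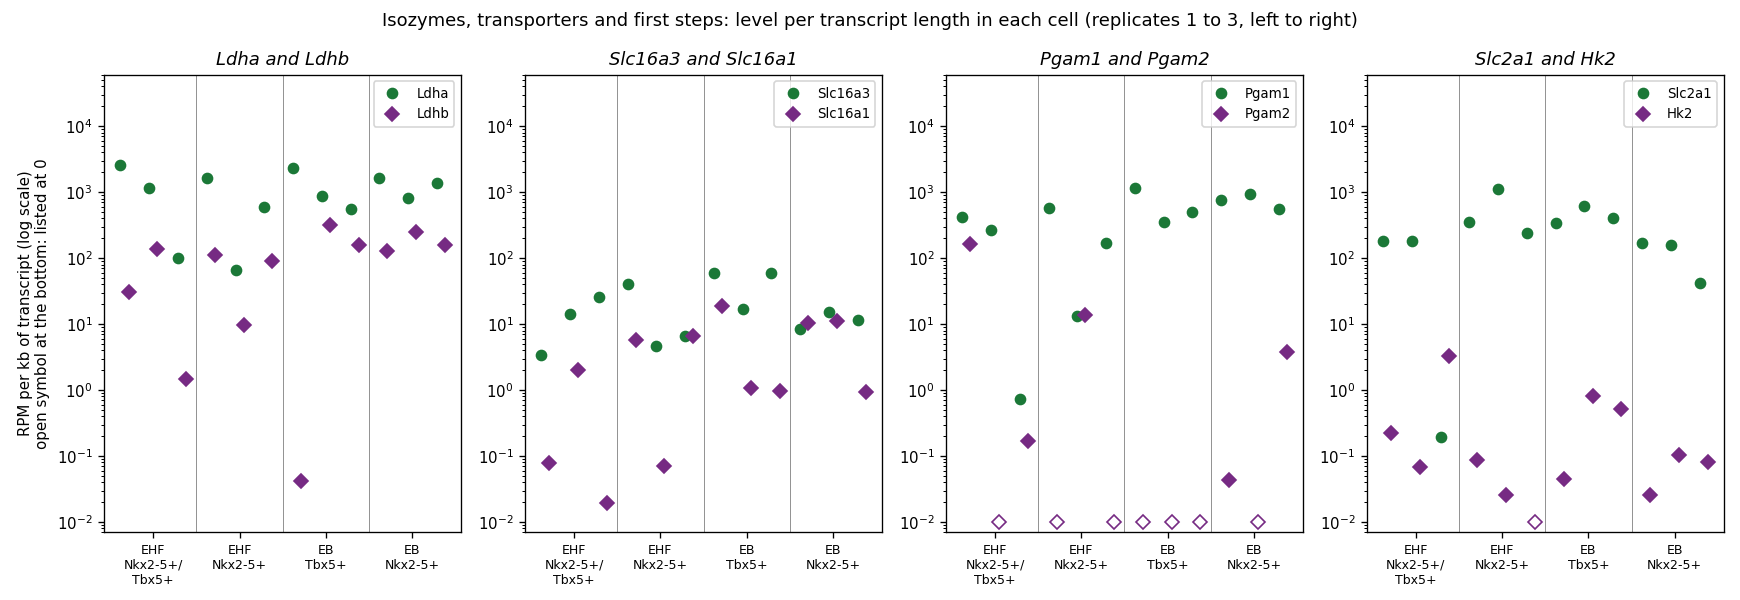
RPM per kilobase of transcript (log axis) of 4 pairs of genes in each of the 12 cells, replicates 1 to 3 from left to right within a subpopulation, with open symbols at the bottom for values listed at 0. Ldha lay above Ldhb in 12 of 12 cells, and Slc16a3, Pgam1 and Slc2a1 lay above Slc16a1, Pgam2 and Hk2 in 11 of 12 each.

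All 9 measured members were at 1 RPM or more in 12 of 12 cells, which held for 590 of the 5031 measured genes (11.7%). None of their 108 values was 0. Of the 17 measured genes of the tricarboxylic acid cycle 1 reached 1 RPM in every cell, and of the 8 measured genes of fatty acid oxidation none did (0 of 8; 4 were at 0 in some cell). These sets differed in level. The median of the mean RPM was 197 for the members and 38.7 for all measured genes. It was 89.9 for the tricarboxylic acid cycle and 52.2 for fatty acid oxidation. What part level had in these shares was not tested. The median CV was 0.73 for the members, 1.29 for the tricarboxylic acid cycle, 1.45 for fatty acid oxidation and 1.58 for all measured genes. Since spread falls with level in such libraries, the members were also set beside the 1197 genes at or above the mean of Slc16a3. The median CV of these was 1.03, and all 9 members lay below it. This set is cut at the lowest member and is not matched in level. By mean RPM Ldha ranked 19, Pkm 39, Pgam1 70 and Aldoa 103 of all symbols. Gapdh ranked 512, Gpi1 633, Tpi1 661, Pgk1 885 and Slc16a3 1197. What part level had in the lower CV was not tested. These are descriptions over genes, not tests.

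The members took 0.290% to 1.80% of the listed RPM of a cell. Their sum was 9552, 5773 and 1243 RPM across EHF Nkx2-5+/Tbx5+ CPs and 7573, 2235 and 2732 RPM in the EHF Nkx2-5+ CPs. It was 10149, 5360 and 3816 RPM in the EB Tbx5+ CPs and 6249, 5366 and 6059 RPM in the EB Nkx2-5+ CPs. The highest cell held 7.68 times the sum of the lowest in the EHF Nkx2-5+/Tbx5+ CPs, 3.39 times in the EHF Nkx2-5+ CPs, 2.66 times in the EB Tbx5+ CPs and 1.16 times in the EB Nkx2-5+ CPs. The means of the 4 subpopulations, 5523, 4180.0, 6442 and 5892 RPM in the same order, lay within the range of the cells of each EHF subpopulation. Relative to each gene's own mean of log2(RPM + 10), the members averaged 1.18 in EB Tbx5+ replicate 1, 1.04 in EHF Nkx2-5+ replicate 1 and 0.83 in EHF Nkx2-5+/Tbx5+ replicate 1, the 3 highest cells. The lowest were EHF Nkx2-5+/Tbx5+ replicate 3 at -2.22 and EHF Nkx2-5+ replicate 2 at -1.46. The average of all measured genes was also lowest in these 2 cells, at -0.80 and -0.77, and they had the fewest genes at 1 RPM. Over 12 cells the mean of the members followed the number of genes with Spearman's rho 0.48, and over the 10 cells without these 2 with rho 0.09. What part the lower number of genes had in the low member levels was not tested.

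Not every member was low in those cells. In EHF Nkx2-5+ replicate 2, Pgam1 at 23.2 RPM and Ldha at 117 RPM were far below their means of 842 and 2016 RPM, while Pkm was at 1640.1 RPM and Gapdh at 178 RPM. Slc2a1, the glucose importer, had its highest value of all cells there, 3647 RPM. In EHF Nkx2-5+/Tbx5+ replicate 3, Pgam1 was at 1.32 RPM, Pgk1 at 2.44 RPM and Slc2a1 at 0.631 RPM. Only Slc16a3, at 112 RPM, was above its mean there (96.4 RPM). Aldoa at 378 RPM and Pkm at 513 RPM were below their means of 624 and 1274 RPM, though by less than Pgam1 and Pgk1. That Pkm value was its lowest of all cells.

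**Figure D3:**
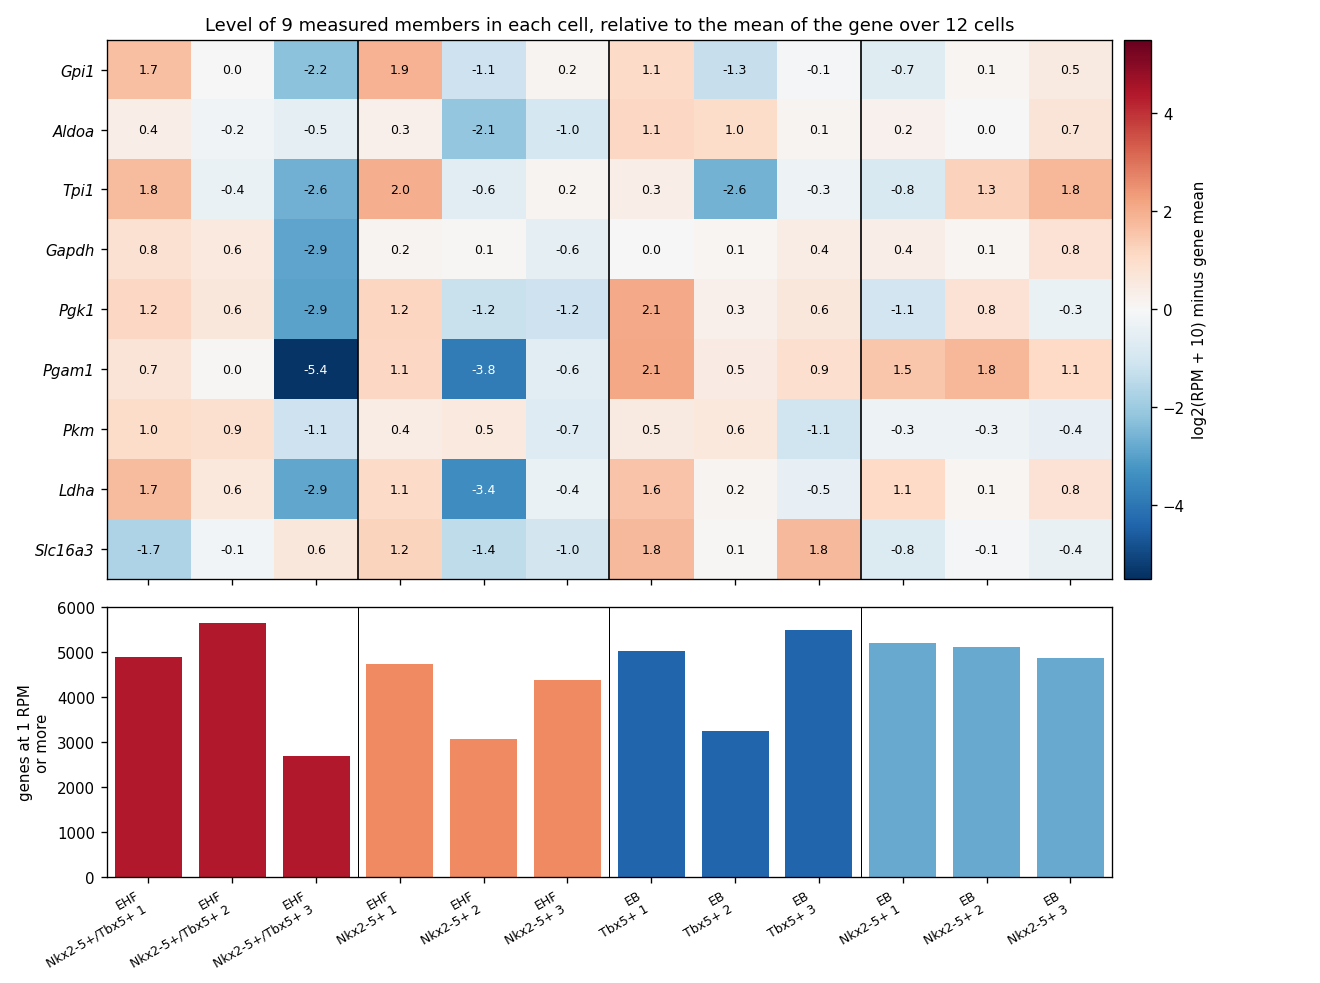
Top, log2(RPM + 10) of the 9 measured members in each cell minus the mean of the gene over 12 cells (colour and number). Bottom, the number of genes at 1 RPM or more in the same cells, with 2682 in EHF Nkx2-5+/Tbx5+ replicate 3 and 3073 in EHF Nkx2-5+ replicate 2, the cells with the lowest member averages of -2.22 and -1.46.

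The subpopulations were compared by the log2 ratio of their mean RPM, with 10 RPM added to each mean, and a gene at least 2-fold apart on that scale (log2 difference of at least 1 or at most -1) was counted. The 6 comparisons share cells. In none of them were all cells of a group above or below all cells of the other for any member. The share of measured genes with such a separation was 1.23% for the EHF Nkx2-5+/Tbx5+ CPs, 0.835% for the EHF Nkx2-5+ CPs, 0.656% for the EB Tbx5+ CPs and 0.636% for the EB Nkx2-5+ CPs against the other 9 cells. It was 0.457% for EHF against EB and 8.29% for the EHF Nkx2-5+/Tbx5+ against the EHF Nkx2-5+ CPs.

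The EHF Nkx2-5+/Tbx5+ CPs were set against the other 9 cells to see what the double positive cells have in particular. Pgam1 was at least 2-fold lower, with means of 412 and 985 RPM and a log2 difference of -1.24. Of the 9 members 0 were 2-fold higher and 1 was 2-fold lower, against 19.7% and 31.5% of all measured genes. The member median was -0.16 and that of all measured genes -0.27. Pkm had the largest positive difference, 0.50, with means of 1636 and 1154 RPM. Without replicate 1 the Pgam1 difference was -1.999 and the median -0.78, and 3 members were 2-fold lower (Pgam1, Tpi1 and Gpi1). Without replicate 3 the Pgam1 difference was -0.67 and the median 0.37, and Slc16a3 was the 1 member 2-fold lower, at -1.29. Without EB Nkx2-5+ replicate 3 the median was 0.07.

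The EHF Nkx2-5+ CPs had lower Pgam1 and Aldoa than the other 9 cells, with log2 differences of -1.08 and -1.03. The means were 454 and 972 RPM for Pgam1 and 345 and 717 RPM for Aldoa. Thus 0 members were 2-fold higher and 2 were 2-fold lower, against 13.1% and 44.9% of measured genes. The member median of -0.42 lay above the -0.80 of all measured genes, and Gpi1 had the largest positive difference at 0.56. Without replicate 2 the differences of Pgam1 and Aldoa were -0.53 and -0.63 and Gpi1, at 1.02, was the 1 member 2-fold apart, and without replicate 1 they were -2.50 and -1.86, with a median of -1.71. Neither passed 2-fold without replicate 3 (-0.87 and -0.88) or without EB Tbx5+ replicate 1 (-0.88 and -0.91), nor when each cell was rescaled to the same sum of listed RPM (-0.92 and -0.90). Pgam1 was at -0.95 without EB Nkx2-5+ replicate 2, and Aldoa was at -0.94 without EB Tbx5+ replicate 2 and at -0.99 without EB Nkx2-5+ replicate 3.

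In the EB Tbx5+ CPs, the exporter Slc16a3 and the ATP-generating enzyme Pgk1 were at least 2-fold higher than in the other 9 cells and Tpi1 was 2-fold lower. Slc16a3 averaged 197 and 62.7 RPM (log2 difference 1.51), Pgk1 216 and 97.0 RPM (1.08) and Tpi1 72.4 and 191 RPM (-1.29). These are 2 and 1 of 9 members, against 16.2% and 33.0% of measured genes, and the member median was 0.17 beside -0.28. Slc16a3 was 2-fold higher whichever cell was left out (1.28 to 1.89). The study itself lists Slc16a3 and Aldoa among the genes enriched in EB Tbx5+ CPs, from these same cells, so the Slc16a3 difference is no independent finding. Aldoa was not 2-fold apart here. Pgk1 rested on replicate 1, without which its difference was 0.31, and was just under 2-fold without EHF Nkx2-5+/Tbx5+ replicate 3 (0.93), EHF Nkx2-5+ replicate 2 or 3 (0.97 each) or EB Nkx2-5+ replicate 1 (0.98). Tpi1 rested on replicate 2, without which its difference was -0.81. Neither gene separated the groups: the lowest EB Tbx5+ cell for Slc16a3, at 73.6 RPM, was below EHF Nkx2-5+ replicate 1 at 175 RPM and EHF Nkx2-5+/Tbx5+ replicate 3 at 112 RPM. Kdr was at 339 RPM in replicate 1, and its part in these values was not tested.

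Slc16a3 was lower in the EB Nkx2-5+ CPs, with means of 50.5 and 112 RPM and a log2 difference of -1.01 that just passed 2-fold. It was -0.77 without EB Tbx5+ replicate 1 or replicate 3, -0.91 without EHF Nkx2-5+ replicate 1, and -0.85 and -0.99 without EB Nkx2-5+ replicates 1 and 3. Pgam1 had the largest positive difference, 0.95. Of the members 0 were 2-fold higher and 1 was 2-fold lower, against 20.5% and 27.4% of measured genes, and the median was 0.16 beside -0.07. Each of these 5 omissions left 0 members 2-fold lower and 1 or 2 members 2-fold higher, which were Pgam1 (1.00 to 1.35), Tpi1 (1.06 and 1.12) or, without EHF Nkx2-5+ replicate 1, both. The median was -0.06 without EB Nkx2-5+ replicate 3 and -0.01 without replicate 1.

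Between stages, 6 EHF cells were set against 6 EB cells. Pgam1 was lower at the EHF stage, with a lowest, median and highest value of 1.32, 390.1 and 1035 RPM in EHF cells and of 634, 1161 and 2017 RPM in EB cells. Its log2 difference was -1.51, and -1.25 without EHF Nkx2-5+/Tbx5+ replicate 3, but -0.95 without the 2 cells with the fewest genes, both of them EHF cells. Aldoa followed at -0.92, with 114, 421 and 690 RPM in EHF cells and 523, 757 and 1196 RPM in EB cells. Gpi1 and Pkm had the largest positive differences, 0.57 and 0.42. In total 0 members were 2-fold higher and 1 was 2-fold lower, against 20.0% and 26.7% of measured genes, with a median of -0.31 beside -0.19. Without the 2 cells with the fewest genes the count turned to 1 member 2-fold higher (Gpi1, 1.05) and 0 lower, and the member median was 0.0030.

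Within the EHF stage, no member was 2-fold apart between the EHF Nkx2-5+/Tbx5+ and the EHF Nkx2-5+ CPs, in either direction. Of all measured genes 33.9% were 2-fold higher and 20.2% 2-fold lower in the EHF Nkx2-5+/Tbx5+ CPs. Ldha had the largest difference, 0.74, with means of 2258 and 1346 RPM, and Tpi1 the most negative, -0.40, with means of 148 and 199 RPM. The member median was 0.26 and that of all measured genes 0.25. It was -0.26 without EHF Nkx2-5+/Tbx5+ replicate 1, which left 2 members 2-fold lower (Tpi1, -2.03, and Gpi1, -1.58), and 1.07 without EHF Nkx2-5+ replicate 1, which left 5 members 2-fold higher. Without EHF Nkx2-5+/Tbx5+ replicate 3 Ldha was 2-fold higher, at 1.29. The member median was -0.08 and -0.06 without EHF Nkx2-5+ replicates 2 and 3.

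**Figure D4:**
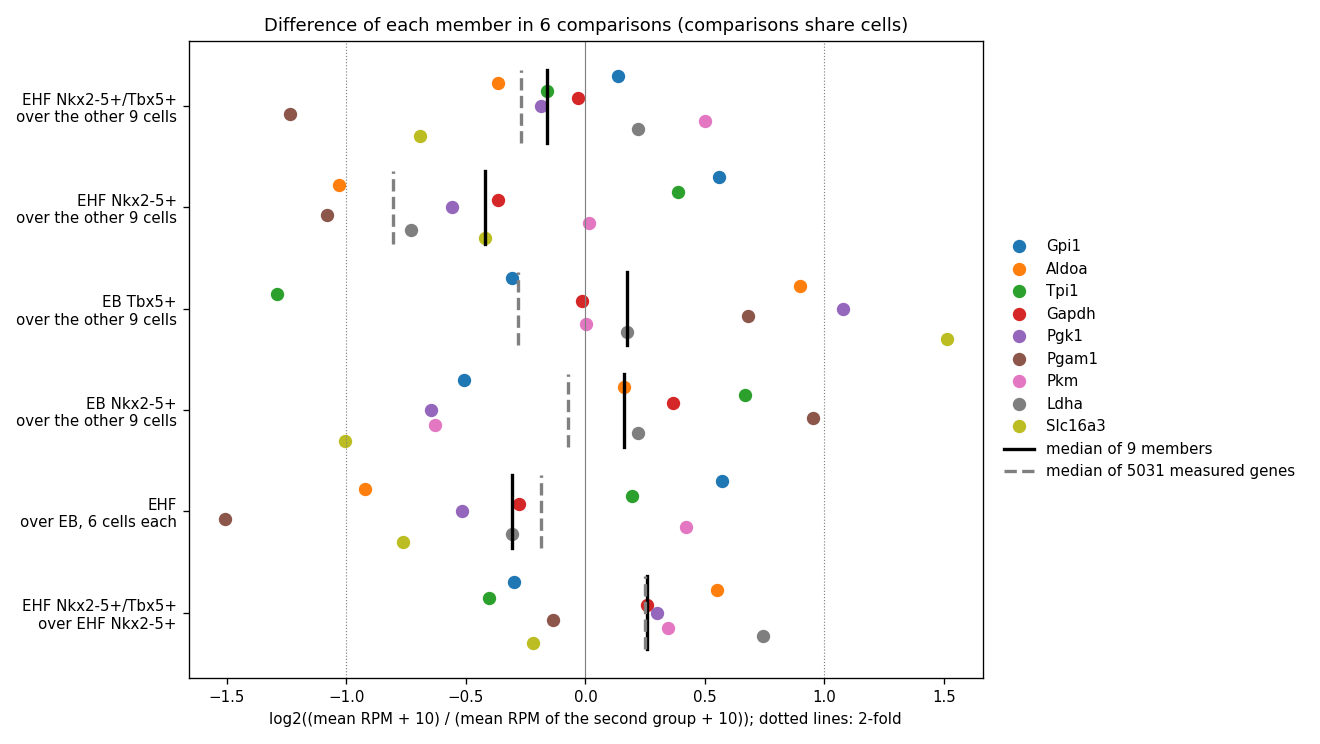
Log2 difference of the mean RPM, with 10 RPM added to each mean, for each of the 9 measured members in 6 comparisons, with the median of the members as a black line, that of 5031 measured genes as a dashed line and 2-fold as dotted lines. Points past a dotted line are Pgam1 (-1.24, -1.08 and -1.51), Aldoa (-1.03), Slc16a3 (1.51 and -1.01), Pgk1 (1.08) and Tpi1 (-1.29).

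The members were then compared with each other over the cells. The most alike were Tpi1 and Gpi1, with Spearman's rho 0.94 over 12 cells and 0.90 over the 10 cells without the 2 with the fewest genes. Ldha and Aldoa followed with rho 0.75, Pgk1 and Gpi1 with 0.73 and Pgk1 and Pgam1 with 0.72. Slc16a3 stood apart, with rho -0.30 to Pkm, -0.27 to Gapdh and -0.02 to Ldha, and its highest rho to a member was 0.43, with Pgk1. Of the 36 pairs of members 31 had a rho above 0 (86.1%) and the median was 0.42, while 63.6% of all pairs of measured genes had a rho above 0, with a median of 0.12. Pairs of members at 0.6 or more numbered 10 (27.8%), beside 5.20% of all pairs. Over the 10 cells the median of the member pairs was 0.31, beside 0.055 for all pairs over the same cells. Of the member pairs 77.8% were above 0, beside 55.5% of all pairs. At 0.6 or more there were 2 member pairs (5.56%), near the 5.12% of all pairs. All values of a cell share its library and depth, so these correlations are descriptions. The pairs of all measured genes were not matched to the members in level. The median of the mean RPM was 197 for the members and 38.7 for all measured genes, of which 58.2% were at 0 in some cell. What part level had in the higher correlations was not tested.

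**Figure D5:**
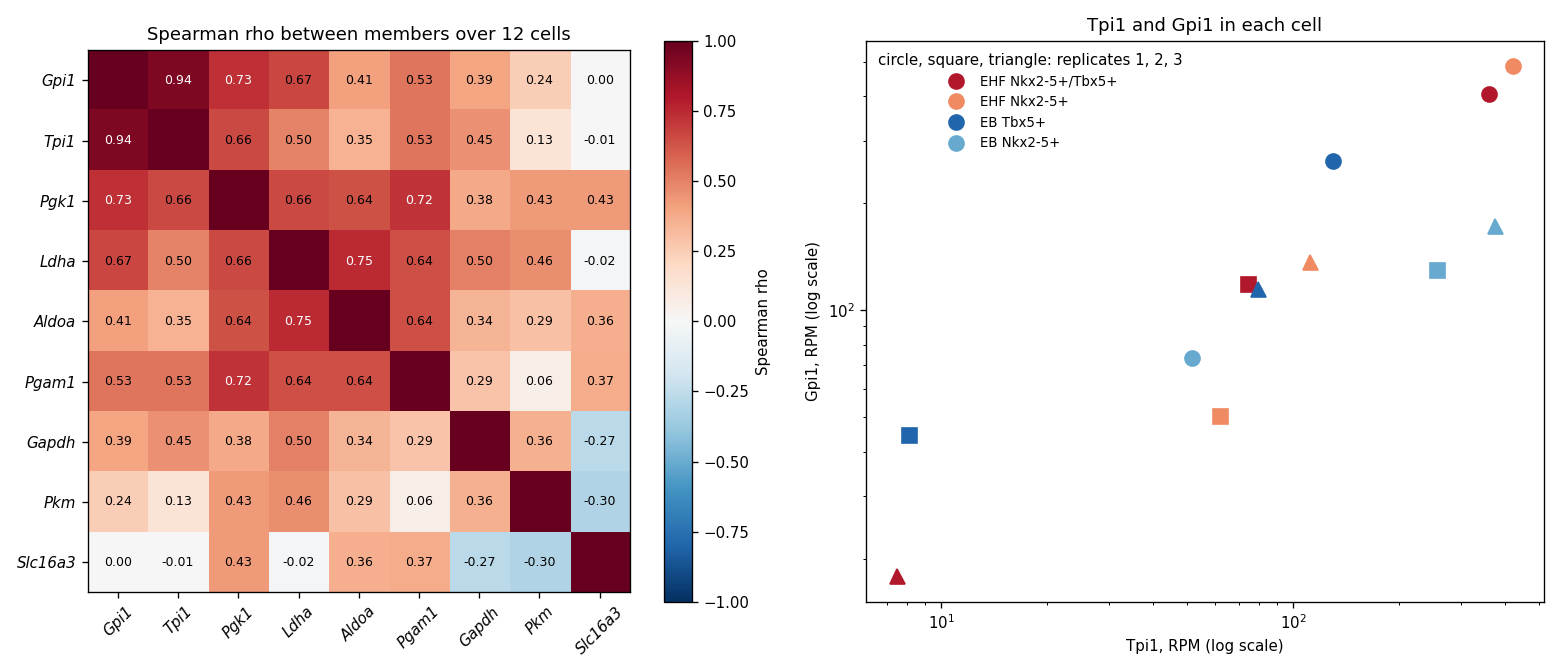
Left, Spearman's rho between the RPM of each pair of the 9 measured members over 12 cells, from -0.30 (Slc16a3 and Pkm) to 0.94 (Tpi1 and Gpi1). Right, RPM of Gpi1 against Tpi1 on log axes, with colour for the subpopulation and shape for the replicate, which runs from EHF Nkx2-5+/Tbx5+ replicate 3 at the lower left to EHF Nkx2-5+ replicate 1 at the upper right.

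Among all measured genes, the one most like Gpi1 was Tpi1 and the reverse, both with rho 0.94. The gene most like Pgk1 was Aldh9a1 (rho 0.95), for Gapdh they were Fkbp2 and Rpl11 (both 0.94), for Ldha Exosc8 (0.92) and for Pgam1 Chchd4 (0.92). Slc16a3 was most like Mkl2 (0.91), Aldoa most like Emc4 (0.91) and Pkm most like Cfl1 (0.84). The average of the 9 members was most like Pgk1 itself (0.92), then Ahsa1 and Snx17 (both 0.91).

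Of 29 further genes of glycolysis, 25 were listed and 10 measured. The minimum of 10 RPM over all cells can be passed through 1 group alone, and such a gene had to differ, so the counts over related genes are a description. In the EHF Nkx2-5+/Tbx5+ CPs against the other 9 cells 1 of the 10 was 2-fold higher and 5 were 2-fold lower, beside 19.7% and 31.5% of all measured genes. The 1 higher gene, Pgam2, had 137, 0 and 0.143 RPM across EHF Nkx2-5+/Tbx5+ CPs and passed the minimum through replicate 1 alone. The lower ones included Minpp1 (-3.84), a phosphatase of inositol phosphates and bisphosphoglycerate, and Ldhb (-1.17). The EHF Nkx2-5+ CPs gave 1 higher and 3 lower (13.1% and 44.9% of all measured genes), the EB Tbx5+ CPs 0 and 2 (16.2% and 33.0%) and the EB Nkx2-5+ CPs 3 and 2 (20.5% and 27.4%). The counts were 1 and 5 for EHF over EB cells (20.0% and 26.7%), and 2 and 3 for EHF Nkx2-5+/Tbx5+ over EHF Nkx2-5+ CPs (33.9% and 20.2%).

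Glucose and lactate transporters and their regulators were listed for 22 of 25 genes, and 9 were measured. Of these 0 were 2-fold higher and 7 were 2-fold lower in the EHF Nkx2-5+/Tbx5+ CPs (against the other 9 cells), beside 19.7% and 31.5% of all measured genes. Of the 7, 3 (Slc16a1, Arnt and Vhl) had a mean under 10 RPM there and passed the minimum through other cells, so they had to be lower. Arnt and Vhl were at 125 and 123 RPM in EB Nkx2-5+ replicate 1 and at no more than 1.21 and 8.25 RPM in any other cell. Slc2a1 was among the 7 (-1.65) and was 2-fold higher in the EHF Nkx2-5+ CPs (1.29), where replicate 2 held 3647 RPM. Egln1, the oxygen-sensing prolyl hydroxylase, had 477, 1215 and 83.8 RPM across EB Tbx5+ CPs, with a difference of 3.30. Its differences were -2.31 in the EHF Nkx2-5+/Tbx5+, -2.06 in the EHF Nkx2-5+ and -1.65 in the EB Nkx2-5+ CPs, each set against cells that include those 3. Bsg, the chaperone that brings MCT1 and MCT4 to the cell surface, was read in every cell at 11.4 to 1553 RPM. Hif1a, the oxygen-regulated activator of many glycolysis genes, had at most 17.6 RPM and was not measured. For the 9 measured genes of this list, the EHF Nkx2-5+ CPs gave 2 higher and 4 lower (13.1% and 44.9% of all measured genes). The EB Tbx5+ CPs gave 1 and 2 (16.2% and 33.0%) and the EB Nkx2-5+ CPs 4 and 2 (20.5% and 27.4%). EHF over EB cells gave 0 and 5 (20.0% and 26.7%). EHF Nkx2-5+/Tbx5+ over EHF Nkx2-5+ CPs gave 1 and 5 (33.9% and 20.2%).

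Beyond glycolysis, the 10 listed genes of pyruvate dehydrogenase with its phosphatases, the pyruvate carriers and pyruvate carboxylase had 5 measured (35.8% of all symbols were). Each of the 5 was at 0 in some cell, as were 58.2% of all measured genes. In the EHF Nkx2-5+/Tbx5+ CPs against the other 9 cells, 2 of the 17 genes of the tricarboxylic acid cycle were 2-fold higher and 5 were 2-fold lower, no more than the 19.7% and 31.5% of all measured genes. Of the 2, Suclg2 passed the minimum through replicate 2 alone, at 196 RPM. Of the 8 measured genes of fatty acid oxidation 4 were 2-fold higher and 2 were 2-fold lower, beside the same 19.7% and 31.5%. Of the 4, Cpt2 and Acaa2 had a mean under 10 RPM in the other 9 cells. The largest difference of the 4, 4.50, was that of Hadha. It had 6.52, 44.6 and 1547 RPM across EHF Nkx2-5+/Tbx5+ CPs and so rested mainly on replicate 3. For the pentose phosphate pathway the counts were 1 higher and 1 lower of 5, beside the same shares. The 1 higher gene, G6pdx, was at 77.7 RPM in replicate 1 and at no more than 2.21 RPM in the other 2. The transaldolase gene Taldo1 was at 1892 RPM in EHF Nkx2-5+ replicate 2, where Ldha and Aldoa had their lowest values.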

How the data were processed

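Single-cell cDNA, primed with oligo(dT) and amplified by 20 cycles of PCR, was sequenced by the authors from 12 cells on an Illumina GA IIx. The authors annotated aligned reads and normalised them to RPM with Partek Genomic Suite 6.6; per the labels the build was mm10 and CASAVA 1.7.0 was used (aligner: not given in the sources used here). Deposited values are a signal in RPM over all aligned reads of the cell, not corrected for length, and the file also gives those reads (12475588 to 37905007 per cell, so that 3 reads are worth 0.0791 to 0.240 RPM, counting error only). Of values that come to 1 to 20 reads, 96.3% were whole within 0.02 reads. The sheet holds 64 copies of the same values, and the first copy was used. Symbols turned into dates (22) were left out.

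No test between groups was made, since no embryo is named. Log2 differences were taken between mean RPM with 10 RPM added. A gene counted as measured at a mean of 10 RPM or more. The members and gene lists were chosen with earlier results of these data known. By the naming rule the text names every member, from each related list up to 4 measured genes with the largest absolute difference in a comparison, the 3 genes most like a member by Spearman's rho, and marker genes. Genes outside it (Hk1, Pfkl, Eno1, Eno1b, Ldhb, Pgam2, Aldoc, Slc16a1, Slc2a1, Bsg, Hif1a, Taldo1, Suclg2, Cpt2, Acaa2, G6pdx, Eno3, Epas1 and Gapdh copies) were chosen as isozymes or partners of members or after their values were seen. Positions and transcripts are from GENCODE M21. Genes that share 200 or more bases at 90% identity with a member were found by BLAST 2.17.0. The calculation of the log2 differences was tested on simulated data. Scripts ran under Python 3.11.15 with scipy 1.17.1, pandas 2.3.3, numpy 2.4.6 and, for figures, matplotlib 3.10.9.

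Alternatives were 1 or 100 RPM added, the median over cells or the mean of log2 values in place of the mean, cells rescaled to 1 total of all listed genes or of all but the 100 most abundant, no minimum or 50 RPM, leaving out each cell in turn, and leaving out both cells poorest in genes.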

Additional observations from a re-analysis of the deposited data

Results flagged for a closer look

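Among the members, 20 groups of 6 cells (10 genes at 2 stages) were checked for a cell far from the rest. Dixon's limit picks about 1 in 20 groups by chance where values are independent and normally spread. Whether RPM of single cells meet this was not checked, so the chance rate here is not known. Hk2 was at 17.9 RPM in EHF Nkx2-5+/Tbx5+ replicate 3, while the next of the 6 EHF cells had 1.24 RPM, a gap of 0.931 of the range. Pgk1 was at 403 RPM in EB Tbx5+ replicate 1, while the next of the 6 EB cells had 156 RPM, a gap of 0.673 of the range. Both gaps exceeded Dixon's limit for 6 values, which served only to pick cells to look at again: the 6 cells of a stage are not replicates of a group, and nothing about a group was tested.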

How the results depend on the processing

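Values are members at least 2-fold apart unless a median is named, and each comparison is against the other 9 cells unless another group is named. For the EHF Nkx2-5+/Tbx5+ CPs 1 became 2 with the median over cells or without the 2 cells with the fewest genes. For the EHF Nkx2-5+ CPs 2 became 0 with 100 RPM added, with either rescaling and without those 2 cells. For the EB Tbx5+ CPs 3 became 0 with 100 RPM added and 5 with the mean of log2 values. For the EB Nkx2-5+ CPs the 1 lower member became 0 with 100 RPM added. With the mean of log2 values or the median over cells 2 members were apart, both of them higher. Slc16a3 was then no longer 2-fold lower (-0.55 and -0.49). For EHF against EB 1 became 3 with the mean of log2 values. For the EHF Nkx2-5+/Tbx5+ against the EHF Nkx2-5+ CPs 0 became 1 with the median over cells or without those 2 cells. Leaving out each cell gave 1 to 3, 0 to 5, 2 to 4, 1 to 2, 1 to 3 and 0 to 5 members in the order above, and medians of -0.78 to 0.37, -1.71 to -0.18, 0.02 to 0.52, -0.06 to 0.35, -0.58 to -0.04 and -0.26 to 1.07. Without the 2 cells with the fewest genes the median was 0.27 for the EHF Nkx2-5+/Tbx5+, -0.06 for the EB Tbx5+ and -0.12 for the EB Nkx2-5+ CPs. With no minimum it was -0.09 for the EB Nkx2-5+ CPs, and with the mean of log2 values -0.01 within the EHF stage. The cause was not tested. Rescaling moved the median of all genes by -0.17 to 0.16. Of values of these kinds 209 stayed within 1.5 times the count or 1 SD over cells of the median and 31 did not, and no called difference changed sign. The direction of the count turned in several settings. For EHF against EB 0 higher and 1 lower became 1 and 0 without the 2 cells with the fewest genes. For the EHF Nkx2-5+ CPs 0 higher and 2 lower became 1 and 0 without replicate 2. For the EB Nkx2-5+ CPs 0 higher and 1 lower became 2 and 0 with the mean of log2 values or the median over cells. It turned there in the 5 omissions of a cell given above as well. For the EB Tbx5+ CPs 2 higher and 1 lower became 1 and 2 without replicate 1. The values of the 9 measured members rested on 46 reads or more and those of Hk2 on 0 to 625, reads of amplified cDNA that are not independent molecules, and the part of depth was not tested. No paired analysis was possible because the results come from no test and the replicate numbers only name cells.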

Other observations

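In EHF Nkx2-5+/Tbx5+ replicate 3, where Hk2 had its highest value, Eno3, the muscle enolase, was at 61.4 RPM and Epas1, which encodes HIF-2 alpha, at 46.5 RPM. In the other 11 cells Eno3 did not exceed 9.49 RPM and Epas1 did not exceed 0.641 RPM. Both genes were singled out after their values were seen.

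Aldoart1, a gene that shares sequence with Aldoa, was at 13.2 to 108 RPM, and the Ldha pseudogene Gm13315 at 0 to 93.0 RPM, its highest value being in EHF Nkx2-5+ replicate 1. Reads of these copies were left as listed.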
